A study of Mus musculus with 23 samples.

Results

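The genes described here are 10 neighbours on mouse chromosome 1 that lie on the centromeric side of Prkag3, from Arpc2 to Ttll4, and that are mostly expressed in many tissues. They were chosen by symbol as Arpc2, Aamp, Tmbim1, Ctdsp1, Usp37, Rqcd1, Bcs1l, Rnf25, Stk36 and Ttll4. All 10 are among the 79 genes listed in the 4 tables of an inversion against wild type and among the 34682 genes of the Inv1DelCTCF table. In RefSeq all 79 lie on chromosome 1, from Bard1 to Dock10. Shares and medians over the listed genes therefore describe this stretch of the chromosome and not the genome. In the RefSeq gene order of GRCm38.p6 the stretch from Arpc2 to Ttll4 holds 17 protein coding genes. Besides the 10, Pnkd, Slc11a1, Vil1 and Zfp142 are listed in the wild type tables, and the other 3 are not used here. Cyp27a1 lies between Ttll4 and Prkag3, so the chromosomal part of the name fits the gene order. Breadth of expression was not checked, since only forelimb libraries were analysed here.

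Distal forelimbs were taken at E11.5 and their polyA RNA was sequenced. The libraries used here number 3 for Inv1, 4 for Inv2, 3 for Inv3, 3 for Inv4, 2 for Inv1DelCTCF and 5 for wild type (WT). Each of Inv1 to Inv4 carries an engineered inversion, made with CRISPR/Cas9, that moves an enhancer cluster out of the Epha4 domain and close to many genes, and Inv1DelCTCF carries, by its name, Inv1 and a CTCF site deletion. Inv1 is therefore both the tested inversion in one comparison and the control of Inv1DelCTCF, and all libraries are labelled with G4 ESC, a mouse embryonic stem cell line, as cell type. The labels give neither the number of clones nor the breakpoints, and although the study calls its replicates biological, it does not say whether they came from different litters, so a p-value speaks of the spread among the sequenced libraries alone.

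Enhancers raise transcription of promoters they can contact, and contacts are mostly held within domains bounded by CTCF and cohesin. Promoters of broadly expressed genes are often rich in CpG dinucleotides and are known to respond less to distant enhancers than promoters of developmental genes do. The comparisons ask which genes around the new position of the enhancers change, and for the 10 genes here whether steadily expressed neighbours do so.

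The values are the authors' comparisons, without a value per library, so library depth is unknown and the spread is known through the standard error (SE) of each log2 change. A gene is called when its deposited adjusted p is under 0.05, and intervals are 95% intervals from the SE. In the Inv1DelCTCF table the 7 distal limb markers had mean normalised counts between 513 (Msx1) and 25893 (Prrx1), with a median of 7273, in the authors' deposited table. The hindlimb genes Pitx1 and Tbx4 stood there at 19.2 and 642, so Tbx4 was above Msx1. Of 32 marker genes, 1 is listed in the wild type tables. That gene is Pax3, a gene of muscle precursors, with log2 changes of -0.43, -0.89, -1.42 and -0.84 in Inv1 to Inv4 in the authors' deposited table, not called in Inv1 (adjusted p = 0.663). Pax3 is also the gene next to Epha4 among the listed genes of chromosome 1, and whether its values reflect cells or the rearranged chromosome cannot be told apart. Its part in the results below was not tested. In bulk tissue, fewer cells of a type and less RNA per cell cannot be told apart.

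The promoters of 5 genes are printed below, since these 5 were called in at least 1 inversion. Each sequence runs from 250 bases before to 50 bases after the RefSeq start of the gene. The files use build mm9, so these GRCm38.p6 positions are only those of the printed sequences. Capitals mark the searched motifs on either strand, which were CCGGAA of ETS factors, GGGCGG of SP and KLF factors, the CCAAT box and the TATA box as TATAAA.
Tmbim1 (GRCm38.p6, chr1:74304287-74304586, minus strand): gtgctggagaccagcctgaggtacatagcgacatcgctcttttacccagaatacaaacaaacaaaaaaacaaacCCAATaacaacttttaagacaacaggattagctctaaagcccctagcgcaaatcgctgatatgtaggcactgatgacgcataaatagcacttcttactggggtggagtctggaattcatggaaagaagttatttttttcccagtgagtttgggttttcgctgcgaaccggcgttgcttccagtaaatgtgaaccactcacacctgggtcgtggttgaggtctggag
Arpc2 (GRCm38.p6, chr1:74236267-74236566, plus strand): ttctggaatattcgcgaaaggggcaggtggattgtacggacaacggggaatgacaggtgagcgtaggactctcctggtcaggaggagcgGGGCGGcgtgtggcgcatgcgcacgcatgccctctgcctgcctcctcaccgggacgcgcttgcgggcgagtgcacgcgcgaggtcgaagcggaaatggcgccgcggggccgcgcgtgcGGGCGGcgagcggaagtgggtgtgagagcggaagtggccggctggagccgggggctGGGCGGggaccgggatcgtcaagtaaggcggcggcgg
Aamp (GRCm38.p6, chr1:74284689-74284988, minus strand): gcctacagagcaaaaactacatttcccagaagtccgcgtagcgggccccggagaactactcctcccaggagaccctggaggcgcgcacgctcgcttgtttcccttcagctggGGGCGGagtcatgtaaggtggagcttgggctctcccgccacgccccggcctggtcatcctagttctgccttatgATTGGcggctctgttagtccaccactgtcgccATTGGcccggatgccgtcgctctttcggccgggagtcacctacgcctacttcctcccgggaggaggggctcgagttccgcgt
Rqcd1 (GRCm38.p6, chr1:74505810-74506109, plus strand): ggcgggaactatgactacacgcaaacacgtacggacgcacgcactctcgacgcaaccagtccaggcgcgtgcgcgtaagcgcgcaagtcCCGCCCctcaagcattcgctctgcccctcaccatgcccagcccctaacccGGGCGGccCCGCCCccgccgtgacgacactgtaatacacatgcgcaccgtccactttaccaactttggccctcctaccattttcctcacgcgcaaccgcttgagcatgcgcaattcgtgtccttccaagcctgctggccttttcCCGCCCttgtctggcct
Ttll4 (GRCm38.p6, chr1:74661452-74661751, plus strand): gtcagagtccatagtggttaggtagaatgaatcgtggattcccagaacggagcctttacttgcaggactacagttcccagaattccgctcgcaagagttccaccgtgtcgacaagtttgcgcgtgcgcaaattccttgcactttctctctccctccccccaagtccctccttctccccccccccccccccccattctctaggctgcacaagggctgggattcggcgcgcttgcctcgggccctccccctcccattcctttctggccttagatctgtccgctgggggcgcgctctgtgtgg
RefSeq lists Rqcd1 under its current symbol Cnot9, and all 10 genes matched a promoter.

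The Tmbim1 promoter had the lowest CpG count and GC content of the 10. It held 10 CpG dinucleotides and a GC content of 45.3%, whereas the other 9 promoters held 16 to 40 CpG and 52.3% to 72.0% GC. Its observed over expected CpG, a ratio that allows for the C and G content, was 0.649. That was above Bcs1l (0.626) and Ttll4 (0.629). The median over all 32851 promoters of the same length was 7 CpG, and the Tmbim1 count was at the 56.5 percentile. A single CCAAT box was the only searched motif in the Tmbim1 window, a motif found in 37.4% of all promoters. The CCAAT box was also present in Rnf25, once, and in Aamp, with 2 matches. None of the searched motifs was present in the Ttll4 window. The SP and KLF motif, found in 35.7% of promoters, was present in 8 of the 10, the exceptions being Tmbim1 and Ttll4. The ETS motif, found in 14.9% of promoters, was present in Bcs1l, Rnf25 and Stk36, and the TATA box, found in 13.6%, in none of the 10 windows. These motifs were chosen with the sequences in view, and a match is a description of letters. The part of promoter sequence in the changes reported below was not tested.

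Of the 10 genes, 4 are arranged as divergent pairs. Usp37 and Rqcd1 start 239 bases apart on opposite strands, and their windows share 262 bases, so the Usp37 promoter is nearly the reverse strand of the Rqcd1 sequence above. Rnf25 and Stk36 start 58 bases apart and point away from each other, and their windows share 157 bases, which hold the 2 adjacent ETS motifs of both.

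The 10 genes spanned a wide range of abundance, with 8 of them above and Tmbim1 and Bcs1l below the median of the listed genes. Their mean normalised counts in the joint fit of 18 libraries ranged from 537 for Bcs1l to 6837 for Arpc2 in the authors' deposited table, with a median of 3240, against 745 over the 78 genes listed for Inv1. Among the 21941 genes with a mean above 0 in the Inv1DelCTCF table, they ranked between the 61.2 percentile (Bcs1l) and the 95.4 percentile (Arpc2). Among the 11218 genes with an adjusted p the range was wider, with Bcs1l at the 24.1, Tmbim1 at the 25.0, Stk36 at the 37.7 and Arpc2 at the 91.0 percentile. Per kilobase of the longest coding transcript, the rebuilt WT level was highest for Arpc2, at 5045 normalised counts, and lowest for Tmbim1, at 44.0. The Tmbim1 value rests on a longest transcript of 11011 bases and may be too low if shorter ones dominate.

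Across the 4 inversions the 10 genes moved little, and the changes that passed the test were in Inv3 and Inv4. In Inv3, 1 gene rose and 4 fell, in Inv4 1 gene rose and none fell, and in Inv1 and Inv2 none was called. The listed genes as a whole were called in 32.9% of cases in Inv3, 20.8% in Inv4, 8.97% in Inv1 and 4.05% in Inv2. Called higher were 16.5% in Inv3, 13.9% in Inv4, 7.69% in Inv1 and 2.7% in Inv2, and called lower were 16.5% in Inv3, 6.94% in Inv4, 1.28% in Inv1 and 1.35% in Inv2. The deposited p-values place the share called among all genes that the authors tested between 27.6% and 31.1% in Inv3, 19.8% and 23.4% in Inv4, 0.133% and 0.295% in Inv1, and 0.313% and 5.22% in Inv2. The 5 of 10 called in Inv3 and the 1 of 10 called in Inv4 are therefore to be read against a background of many calls, and no test of the list was made.

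**Figure D1:**
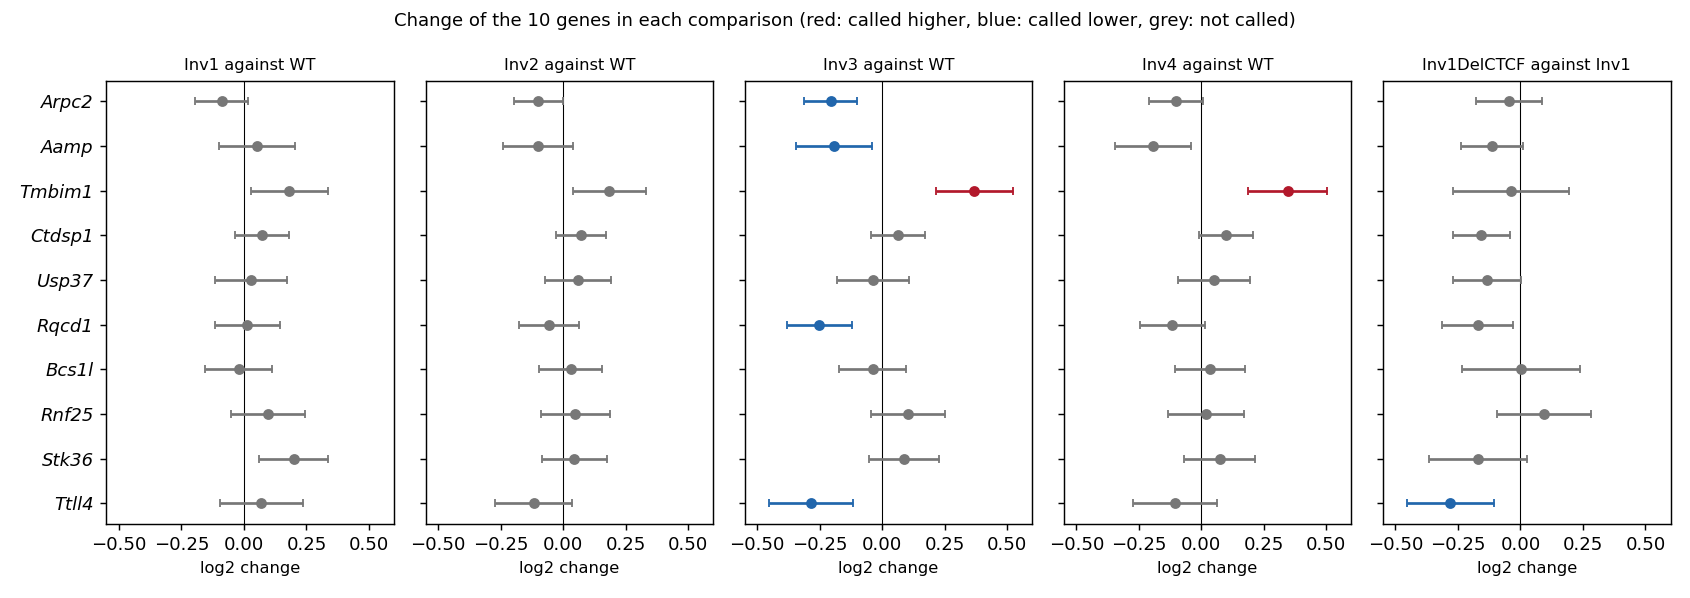
Log2 change (x axis) of each of the 10 genes (y axis, in chromosomal order) in the 5 comparisons, as points with 95% intervals from the authors' SE. Red and blue mark genes called higher and lower, which are Tmbim1 in Inv3 and Inv4, then Arpc2, Aamp, Rqcd1 and Ttll4 in Inv3, and Ttll4 in Inv1DelCTCF; grey genes were not called.

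Tmbim1 was the 1 gene of the 10 that rose. It encodes a membrane protein of the Bax inhibitor motif family found in Golgi and endolysosomal membranes. Its group means rebuilt from the joint fit were 549, 551, 625 and 615 normalised counts in Inv1, Inv2, Inv3 and Inv4, against 484 in WT. All 4 inversion groups thus lay above WT, although they share the same WT libraries. In the authors' deposited table Tmbim1 was 1.29-fold higher in Inv3 (adjusted p = 5.62e-05, interval 1.16 to 1.44) and 1.27-fold higher in Inv4 (1.14 to 1.42, adjusted p = 0.000719). In Inv1 its log2 change of 0.18 (SE 0.078, adjusted p = 0.628) and in Inv2 that of 0.19 (SE 0.074, adjusted p = 0.173) did not pass, both as the authors' deposited table has them. The inversions themselves were not shown to differ for Tmbim1. The difference of Inv3 minus Inv1 was 0.19 on the log2 scale (interval -0.03 to 0.40, adjusted p = 0.252, normal test), computed from the authors' deposited table. That of Inv4 minus Inv3 was -0.02 (interval -0.25 to 0.20). These intervals are too wide, since both changes share the WT libraries. With that shared variance removed, the interval of Inv3 minus Inv1 was 0.02 to 0.36 (adjusted p = 0.0900, same test), which still did not pass.

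Tmbim1 lies inside the span of Pnkd, a gene on the opposite strand. In GENCODE M21 none of its 11011 exon bases overlaps an exon of a coding neighbour, and the sources used here do not state whether counting used strand. Pnkd had log2 changes of 0.08 (SE 0.078) in Inv1, -0.04 (SE 0.072) in Inv2, -0.02 (SE 0.078) in Inv3 and -0.11 (SE 0.079) in Inv4 in the authors' deposited table, none of them called.

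Arpc2 encodes a core subunit of the Arp2/3 complex, which nucleates branched actin filaments. Its rebuilt means were 6827, 6776, 6291 and 6767 normalised counts in Inv1, Inv2, Inv3 and Inv4, against 7260 in WT. All 4 inversions thus lay below WT, although they share the same WT libraries. Arpc2 fell in Inv3, to 0.867 of the WT level in the authors' deposited table (adjusted p = 0.00138, interval 0.805 to 0.933). In Inv1, Inv2 and Inv4 its log2 changes of -0.09, -0.10 and -0.10 (SE 0.050 to 0.055) were not called in the authors' deposited table.

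Rqcd1 encodes a subunit of CCR4-NOT, the complex that shortens the poly(A) tails of mRNAs. Its rebuilt means were 6812, 6490, 5672 and 6228 normalised counts in Inv1, Inv2, Inv3 and Inv4, against 6750 in WT, with Inv3 the lowest. In Inv3 Rqcd1 fell to 0.840 of WT in the authors' deposited table (interval 0.768 to 0.920, adjusted p = 0.00151). Usp37, a deubiquitinase gene of the cell cycle that shares the promoter region with Rqcd1, was at 0.976 of WT in Inv3 (interval 0.883 to 1.08) in the authors' deposited table and was not called. The difference between these genes was not tested. In GENCODE M21, 4.10% of the Rqcd1 exon bases also lie in exons of Usp37.

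Ttll4 encodes a polyglutamylase that adds glutamate chains to tubulin and to nucleosome assembly proteins. Its rebuilt means were 3104, 2726, 2428 and 2749 normalised counts in Inv1, Inv2, Inv3 and Inv4, against 2958 in WT. It fell in Inv3 to 0.821 of WT in the authors' deposited table (interval 0.731 to 0.921, adjusted p = 0.00535), the strongest fall among the 10 genes in that comparison. Aamp, which encodes a WD40 repeat protein linked to cell migration, had rebuilt means of 5646, 5075, 4765 and 4766 normalised counts in Inv1, Inv2, Inv3 and Inv4, against 5443 in WT. It fell in Inv3 to 0.875 of WT by the authors' deposited table (interval 0.788 to 0.972, adjusted p = 0.0463). In Inv4 its value was nearly the same, at 0.876 of WT (interval 0.788 to 0.973), but its adjusted p of 0.0570 in the authors' deposited table did not pass.

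**Figure D2:**
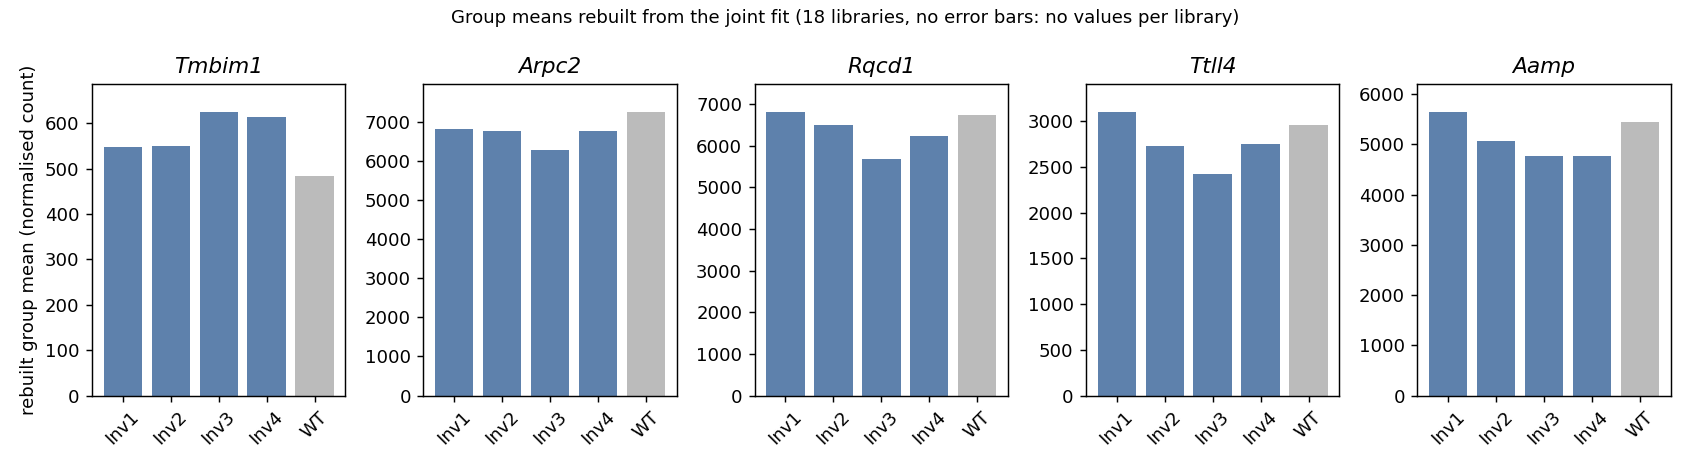
Group means rebuilt from the authors' joint fit, in normalised counts (y axis from 0), for the 5 genes called in at least 1 inversion, with Inv1 to Inv4 in blue and WT in grey. Tmbim1 stands at 625 in Inv3 against 484 in WT, while Arpc2, Rqcd1, Ttll4 and Aamp are lower in Inv3 than in WT; bars carry no error because no value per library is given.

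The other genes were not called in any inversion. Ctdsp1 encodes a phosphatase of the RNA polymerase II tail, and its log2 changes lay between 0.065 and 0.097 in the 4 inversions in the authors' deposited table. Bcs1l, whose product inserts the Rieske protein into respiratory complex III, lay between -0.04 and 0.04, with rebuilt means of 528, 547, 522 and 549 in Inv1 to Inv4, against 536 normalised counts in WT. Rnf25, a RING-type ubiquitin ligase gene, lay between 0.02 and 0.10 in the authors' deposited table. Stk36 encodes a kinase related to Fused, a Hedgehog pathway kinase of Drosophila, and is needed for motile cilia in mice. Its log2 change was 0.20 (SE 0.070, p = 0.00465, adjusted p = 0.381) in Inv1 and between 0.04 and 0.09 in the other 3 inversions in the authors' deposited table.

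Inv1 and Inv2 gave no call among the 10 genes. In the authors' Wald test 2 of them had an unadjusted p under 0.05 in Inv1 (Stk36 and Tmbim1) and 2 in Inv2 (Tmbim1 and Arpc2), where 21.8% of the listed genes did so in Inv1 and 21.6% in Inv2, and no other tool was run. In the authors' deposited table the intervals of the 10 genes reached from -0.19 (Arpc2) to 0.34 (Stk36) on the log2 scale in Inv1, and from -0.27 (Ttll4) to 0.33 (Tmbim1) in Inv2. The median log2 change of the 10 was 0.06 in Inv1, 0.04 in Inv2, -0.04 in Inv3 and 0.03 in Inv4, against 0.09, 0.002, 0.006 and 0.02 over all listed genes. The median absolute log2 change of the 10 was 0.07, 0.07, 0.15 and 0.10 in Inv1 to Inv4, against 0.13, 0.09, 0.16 and 0.12 over all listed genes.

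At the telomeric end of the stretch the values changed abruptly from gene to gene in Inv4. Cyp27a1, a sterol hydroxylase gene and the next gene after Ttll4, rose 2.92-fold (interval 2.48 to 3.43) in Inv4 in the authors' deposited table. Prkag3, a muscle AMPK subunit gene, rose 8.08-fold there (5.73 to 11.4), from a rebuilt WT mean of only 11.7 normalised counts. Ttll4 was at 0.929 of WT in Inv4 (interval 0.827 to 1.04) in the authors' deposited table, an interval far from that of Cyp27a1. In Inv3, Prkag3 rose 2.42-fold (1.71 to 3.43) in the authors' deposited table, while Cyp27a1 was at 0.889 of WT (0.753 to 1.05) and was not called. Of the 4 listed genes interspersed among the 10, none was called in any inversion. Slc11a1 and Vil1 had rebuilt WT means of only 21.0 and 6.59 normalised counts, so their intervals were wide.

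**Figure D3:**
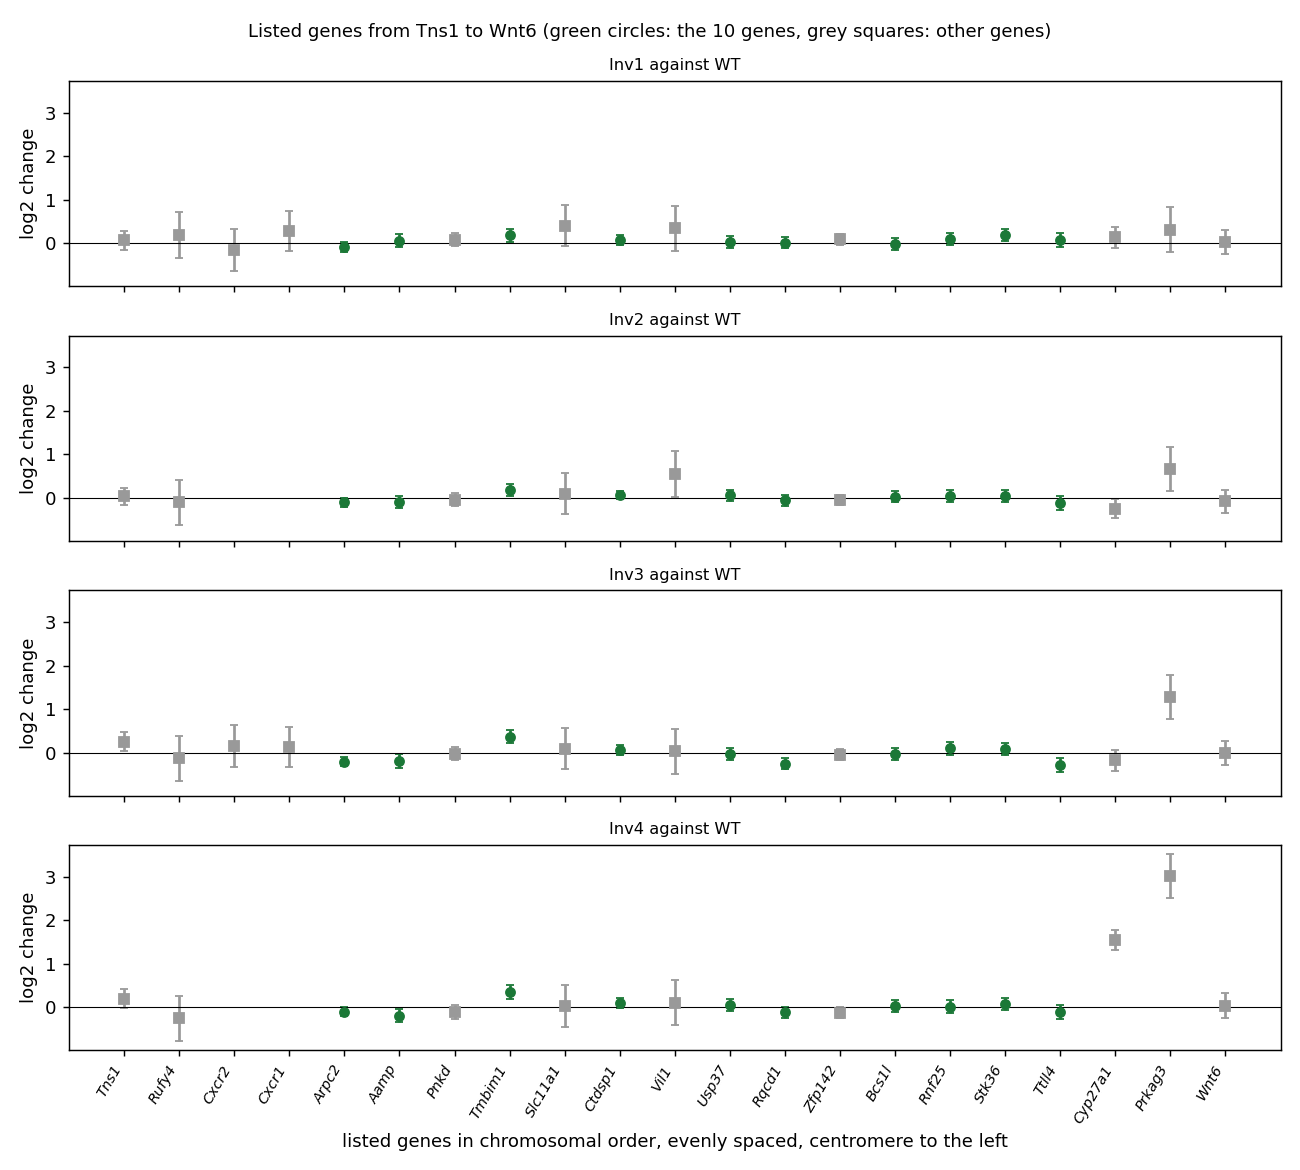
Log2 change against WT (y axis, the same in all panels) of the listed genes from Tns1 to Wnt6 in chromosomal order (x axis, evenly spaced), with 95% intervals from the authors' SE. The 10 genes (green circles) stay within 0.37 of 0, whereas Prkag3 stands at 1.28 in Inv3 and 3.01 in Inv4 and Cyp27a1 at 1.55 in Inv4. Prkag3 had a rebuilt WT mean of only 11.7 normalised counts.

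Set against each other over 6 pairs of inversions, 2 of the 10 genes differed. Ttll4 was lower in Inv3 than in Inv1 by a log2 difference of -0.35 (SE 0.120, adjusted p = 0.0191) and Rqcd1 by -0.26 (SE 0.094, adjusted p = 0.0265), in a normal test that took log2 changes and SE as the authors' deposited table gives them, adjusted over 78 genes. In that pair 23.1% of all shared genes passed. Both calls end when each log2 change is taken relative to the median of the shared genes. In the same test the adjusted p was then 0.0988 for Ttll4 and 0.179 for Rqcd1. Those shared genes all lie in the same stretch of chromosome 1, so their median is not that of the genome. Aamp had a difference of -0.24 (interval -0.46 to -0.03, adjusted p = 0.0911) for Inv3 minus Inv1 and did not pass. None of the 10 genes passed in the other 5 pairs. There the share of passing genes was 8.11% for Inv2 minus Inv1, 13.9% for Inv4 minus Inv1, 4.05% for Inv3 minus Inv2, 4.17% for Inv4 minus Inv2 and 4.17% for Inv4 minus Inv3. With the variance of the shared WT libraries removed from the error, Aamp also passed for Inv3 minus Inv1 (adjusted p = 0.0165, same normal test). By that test Aamp passed for Inv4 minus Inv1 too (adjusted p = 0.0262), and Rqcd1 for Inv3 minus Inv2 (adjusted p = 0.0433). With that variance removed, 29.5%, 23.6% and 13.5% of all shared genes passed in these pairs, in the same order. At an unadjusted p under 0.05 and with that variance kept, the counts in those 5 pairs were 1 for Inv4 minus Inv1, 1 for Inv3 minus Inv2 and 0 for the other 3.

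The transcripts of the 10 genes had GC contents from 43.1% (Usp37) to 57.6% (Ctdsp1). Over the 10 genes the Spearman correlation of GC content with log2 change was 0.564 in Inv1, 0.261 in Inv2, 0.479 in Inv3 and 0.176 in Inv4, and over all 72 shared genes it was 0.472, 0.148, 0.333 and 0.112. These are descriptions across genes of the same libraries. Rqcd1, Ttll4 and Arpc2, which fell in Inv3, had 48.8%, 47.1% and 46.6% GC, but Aamp, which also fell, had 57.4%, and Tmbim1, which rose, had 52.7%. The part of GC content in these changes was not tested.

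By distance over the 4 log2 changes, the other listed genes closest to the median profile of the 10 were Smarcal1 (distance 0.075), Stk16 (0.082) and Utp14b (0.105), out of 62 candidates. The 10 genes themselves lay between 0.048 (Usp37) and 0.550 (Tmbim1) from that median. Smarcal1 lies farther towards the centromere than Arpc2, and Stk16 and Utp14b lie on the other side of Prkag3.

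The CTCF site deletion was compared with Inv1 on all genes. Ttll4 fell in Inv1DelCTCF, with a rebuilt mean of 2247 normalised counts in Inv1DelCTCF against 2729 in Inv1. The authors' deposited table gives this as a log2 change of -0.28 (SE 0.090, adjusted p = 0.0231) once turned to Inv1DelCTCF over Inv1. It was the only 1 of the 10 called, where 11.7% of 11218 genes were called with 7.89% called lower and 3.81% called higher. Ctdsp1 at -0.16 (SE 0.058, adjusted p = 0.0540) and Rqcd1 at -0.17 (SE 0.073, adjusted p = 0.104) did not pass in the authors' deposited table, though their unadjusted p was under 0.05. Usp37, Stk36, Aamp, Arpc2 and Tmbim1 had log2 changes of -0.13, -0.17, -0.11, -0.04 and -0.04, and Bcs1l and Rnf25 of 0.001 and 0.09 in the authors' deposited table. The median of the 10 was -0.12, against -0.01 over all genes with an adjusted p.

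GC content moved with the log2 change across the genome in this table. The median log2 change was 0.13 for the 509 genes with under 40% GC and -0.24 for the 484 genes with over 60%, and the Spearman correlation over 10944 genes was -0.520. Over the 10 genes alone it was 0.152. With a trend in GC content and transcript length subtracted, Ttll4 had a log2 change of -0.25 (adjusted p = 0.0959, normal test with the authors' SE) and was no longer called, where 3.52% of the 10944 genes were. The median of the 10 was then -0.04, and Usp37 and Rqcd1 stood at -0.18 and -0.17. Markers also differed between these groups in the authors' deposited table. Called lower were 2 of 7 distal limb genes, Hoxa13 (-0.30, adjusted p = 0.0330) and Hoxd12 (-0.25, adjusted p = 0.0133), 2 of 5 surface ectoderm genes, 1 of 4 endothelial and 1 of 4 erythroid genes. Of muscle precursor, macrophage and nerve markers only 3, 1 and 1 had an adjusted p, and none of them was called. The summed mean counts over both groups were 3947 for the ectoderm list, 6416 for endothelium and 57084 for erythroid cells, with no marker at 0. Their part in the fall of Ttll4 was not tested.

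**Figure D4:**
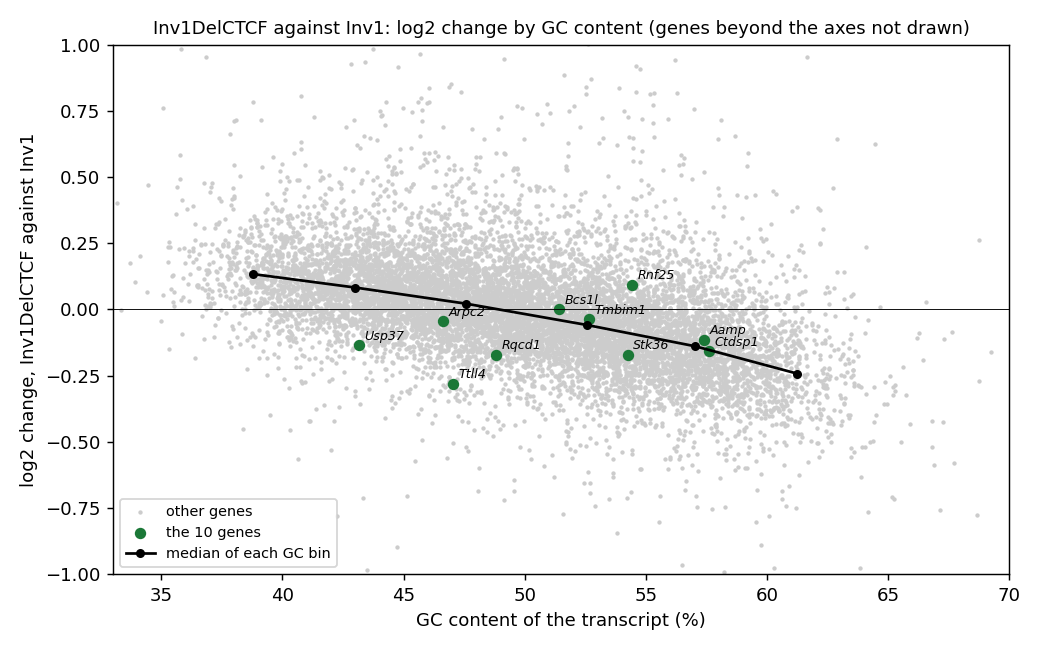
Log2 change of Inv1DelCTCF against Inv1 (y axis, positive is higher in Inv1DelCTCF) against the GC content of the transcript in percent (x axis), for the genes with an adjusted p that lie inside the axes (grey), the 10 genes (green) and the medians of 6 GC bins (black). The bin medians run from 0.13 to -0.24, and Ttll4 at 47.1% GC lies at -0.28, below the bin median of 0.02.

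Genes that work with these 10 or belong to their families, the 10 themselves left out, were measured in the same comparison. They are to be read against the 11.7% called over all genes, without the GC and length trend subtracted. With that trend subtracted 3.52% of genes were called, and the part of the trend in the calls below was not tested. Of the Arp2/3 complex, 1 of 7 other subunits with an adjusted p rose in the authors' deposited table, which was Arpc4 at 0.29 (adjusted p = 0.0125). Of CCR4-NOT, 1 of 10 fell, Cnot3 (-0.23, adjusted p = 0.0410), and of complex III with its assembly factors 2 of 9 fell, Cyc1 (-0.32, adjusted p = 0.00231) and Uqcrc1 (-0.26, adjusted p = 0.00388) in the authors' deposited table. In the tubulin ligase family, 2 of 5 were called in the authors' deposited table, Ttll3 higher (0.72, adjusted p = 0.00139) and Ttll12 lower (-0.36, adjusted p = 0.000155). None was called of 4 genes of the TMBIM family, of 3 small CTD phosphatase genes, or of 5 genes that act with Stk36 or in the Hedgehog pathway, where Gli3 (-0.15, adjusted p = 0.0618) came closest in the authors' deposited table. The median log2 change of these 7 lists lay between -0.11 (Stk36 and Hedgehog) and 0.05 (CCR4-NOT).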

How the data were processed

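RNA libraries of distal forelimbs were processed by the submitters, whose processing notes name STAR, DESeq2 and mm9 without versions. The authors deposited 5 comparison tables. Per the file headers these hold a mean normalised count (a signal pooled over the libraries of the fit), a log2 fold change and its SE, the Wald score made of both, and a p-value before and after adjustment. The 4 wild type tables share their means, as from 1 joint fit of 18 libraries, and the Inv1DelCTCF table comes from a separate fit of 5. Since no count per library is given, no count model was refitted and the depth per library is unknown; the SE gives the precision. The 3 Inv1 libraries of embryonic stem cells were not analysed here.

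Which group is on top of a fold change is not written in the headers. Inv1 levels rebuilt from both fits were set against each other for 49 genes with a mean of at least 300. The median absolute residual was 0.0124 (log2) with positive meaning higher in the mutant and, in the other table, higher in Inv1, against 0.107 or more for the other 3 conventions. That second sign was turned. Among the 10 genes described it was 0.0082. Group means were rebuilt from the pooled mean, the log2 changes and the library numbers.

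Differences between inversions used the summed squared SE, a two-sided normal p and Benjamini-Hochberg adjustment over all genes shared by a pair. The wild type libraries shared by both changes stay in that error, which makes it too large. On simulated data for Inv3 and Inv1 over 78 genes, 83.0% of log2 differences of 0.4 were recovered where the SE was low, with 3.39% of calls false. The simulated noise was independent and had the same SE that the test used, so the share of false calls was set in advance. The planted difference was larger than those reported for Ttll4 and Rqcd1, so the run does not bear on their calls. GC content and length for the trend were read from each gene's longest coding transcript in GENCODE M21, found for 97.6% of genes, with terms up to the cube. On simulated data with such a trend over 10944 genes, 98.1% of genes changed by 1 (log2) were recovered and 4.88% of calls were false. That trend had a form that the fit contains, and the planted change was larger than that of Ttll4. The run therefore checks the code and not the calls made here.

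The members and gene lists were chosen with earlier results of these data known. Named genes are the 10 members, listed genes between them, Cyp27a1 and Prkag3, up to 2 genes per partner list with the smallest adjusted p, and the 3 genes closest in profile; Pax3 and the tissue markers are named as markers. Promoters came from RefSeq GRCm38.p6. Alternatives covered thresholds, adjustment over each table, minimum change and mean, centring, overlapping genes and shared controls. Fits and tests used SciPy 1.17.1 and numpy 2.4.6, tables pandas 2.3.3, plots matplotlib 3.10.9, all under Python 3.11.15.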

Additional observations from a re-analysis of the deposited data

Results flagged for a closer look

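The effects of Inv3 and Inv1 against the same wild type libraries differed for 2 of the 10 genes, where 23.1% of 78 genes differed. The log2 difference of Inv3 minus Inv1 was -0.354 for Ttll4, with log2 changes of -0.29 in Inv3 and 0.07 in Inv1. It was -0.264 for Rqcd1, with -0.25 in Inv3 and 0.01 in Inv1. Both come from the normal test on log2 changes and SE as the authors' deposited table gives them. Relative to the median of the shared genes neither passed, with adjusted p = 0.0988 for Ttll4 and 0.179 for Rqcd1 in that test.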

How the results depend on the processing

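Of 57 recomputed main values, 45 stayed within the limits set and 12 moved. Those limits counted as unmoved a change from 5 to 4 calls in Inv3 (adjusted p under 0.01). They did the same for 2 to 3 calls in Inv3 minus Inv1 (shared wild type variance removed). Some of the 45 could not move, since 0 calls stay 0 under a stricter threshold or a minimum change. The minimum mean count also lay below the lowest joint mean of the 10 genes (537). The 45 are therefore no measure of robustness. Adjusted over the rows of the table, 1 of the 10 genes was called in Inv1 (Stk36, adjusted p = 0.0330) where none was before. With an absolute log2 change of at least 0.25, 3 were called in Inv3 in place of 5. At an adjusted p under 0.1, 2 were called in Inv4 and 2 in Inv1DelCTCF, where 0 were called at 0.01. Shares over all genes were not computed for these changed thresholds, adjustments and minimum changes, so these counts have no background beside them. Subtracting the GC and length trend left 0 called in Inv1DelCTCF, with 385 called over all genes against 1276 before, and a median of -0.036, and turned the sign of Aamp (0.027) and Tmbim1 (0.086), which were not called in either case. Taken relative to the listed genes with a mean of at least 10, the Inv1 median was -0.026. Between inversions, centring on the shared genes left 0 called for Inv3 minus Inv1, where 19.2% of all shared genes passed. A threshold of 0.01 without centring also left 0 called for that pair. Removing the shared wild type part of the variance gave 3 for Inv3 minus Inv1 (2 of them at 0.01). It gave 1 for Inv4 minus Inv1 and 1 for Inv3 minus Inv2. In these pairs 29.5%, 23.6% and 13.5% of all shared genes then passed at 0.05, in the same order. The 1 of Inv4 against WT, Tmbim1, was called under every alternative tried for it. The looser threshold and the minimum mean count could not have removed that call, and centring was not tried for it. With a mean of at least 100 or 20, the direction check gave residuals of 0.0165 and 0.0199 with the same signs. Leaving out replicates was not run, since no value per library is given. No paired analysis was possible because the tables hold no columns per library. The SE of the 10 genes, 0.050 to 0.086 in the inversions and 0.058 to 0.120 in Inv1DelCTCF, limits what could be seen.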
